A study of Mus musculus with 4 samples.

Results

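Signal peptidase and oligosaccharyltransferase are the enzyme complexes that process proteins entering the endoplasmic reticulum (ER). The transcripts of 10 of their subunits were followed here in RNA that came down with Cpeb4, an RNA-binding protein that acts on cytoplasmic polyadenylation elements. They were chosen by gene symbol: Spcs1, Spcs2, Spcs3, Sec11a and Sec11c of signal peptidase, and Magt1, Tusc3, Ostc, Dad1 and Ddost of oligosaccharyltransferase. Each is represented by 1 of the 25206 probe sets, and each probe set stands for 1 gene. The choice was made with measured values in view, because Spcs3 and Magt1 were already known to be among the genes highest over IgG. The difference from IgG therefore describes these genes and is not tested for them. All 10 passed the filter on low values (a mean over the 4 arrays at or above the 40th percentile of named genes), as did 13911 genes in all.

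The material was Ter119+ erythroblasts, immature red blood cells, taken with magnetic beads from mouse fetal liver at E14.5 (embryonic day). Lysates were precipitated with an antibody against Cpeb4 (2 biological replicates, 1 array each, called IP) or with rabbit IgG (1 array), and total RNA without precipitation was the input (1 array). All groups share this cell source, and no strain, genotype or treatment of the embryos was stated. It was not stated either whether the control arrays and an IP replicate shared a cell preparation, so p-values carry only the spread of the IP arrays.

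Signal peptidase sits in the ER membrane and cuts the signal sequence from new secreted and membrane proteins. Sec11a and Sec11c are alternative catalytic subunits, and Spcs1, Spcs2 and Spcs3 are their partners. Oligosaccharyltransferase moves a preassembled sugar chain from a lipid carrier to asparagine residues of the same proteins. Its catalytic subunit is either Stt3a, in the form that works at the translocation channel, or Stt3b, in the form that takes sites the other has passed over. In red cell precursors the anion exchanger band 3, the erythropoietin receptor and the transferrin receptor carry such N-linked chains.

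The arrays differed in ways that bear on these genes. Log2 values on the IgG array were less spread than on the others (SD 1.74, against 2.05 and 2.07 on the IP arrays and 2.13 on the input array). Of 7 matched erythroblast markers, all lay at or above 9.48 on the input array, which goes with the label. Their summed linear level was 13993 and 14074 in the IP, 12759 in IgG and 15863 in input. Markers of other fetal liver cells were higher in the IP when summed. The 6 hepatocyte markers summed to 516 and 603 in the IP, 220.3 in IgG and 114 in input. The 6 macrophage markers summed to 378 and 446 in the IP, 222 in IgG and 161 in input. Megakaryocyte markers (4) summed to 2160.1 and 2345 in the IP, 1293 in IgG and 777 in input, and neutrophil markers (5) to 2212 and 2190.2 in the IP, 1459.7 in IgG and 609.8 in input. The 3 endothelial markers summed to 150.2 and 125 in the IP, 66.9 in IgG and 59.4 in input. At least 2-fold above input in both IP arrays were 3 of 6 hepatocyte, 2 of 6 macrophage, 3 of 4 megakaryocyte, 3 of 5 neutrophil, 1 of 3 endothelial and 0 of 7 erythroblast markers. Above IgG by that rule were 2 hepatocyte, 2 macrophage, 1 megakaryocyte, 2 neutrophil, 1 endothelial and 0 erythroblast markers. Of all tested genes, 4.04% were so above input and 18.6% above IgG. Not all single markers followed the sums. Elane had 6.58 in both IP arrays and in input, and C1qa had 4.43 and 4.69 in the IP and 5.23 in IgG. At least 2-fold below input in both were 2 erythroblast markers, the transcription factors Klf1 (8.40 and 8.41 in the IP, 8.22 in IgG, 10.12 in input) and Gata1 (8.56 and 8.71 in the IP, 8.77 in IgG, 10.04 in input). The part of these cells in the results below was not tested. Between precipitated and input RNA from many cells, the number of cells of a type, their RNA per cell and its recovery in the precipitation cannot be told apart.

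Within signal peptidase the transcripts moved apart. Compared with input, Spcs3 and Sec11c rose in the Cpeb4 IP by 3.33-fold and 2.25-fold, Spcs2 fell, and Sec11a and Spcs1 did not pass the test. Compared with IgG, as deposited, all 5 had higher values in both IP arrays, from 1.40-fold for Spcs2 to 18.0-fold for Spcs3. "Rose" and "fell" are used for a limma adjusted p below 0.05 over the 13911 tested genes. Each difference is the log2 value in the IP minus that of the control named.

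**Figure D1:**
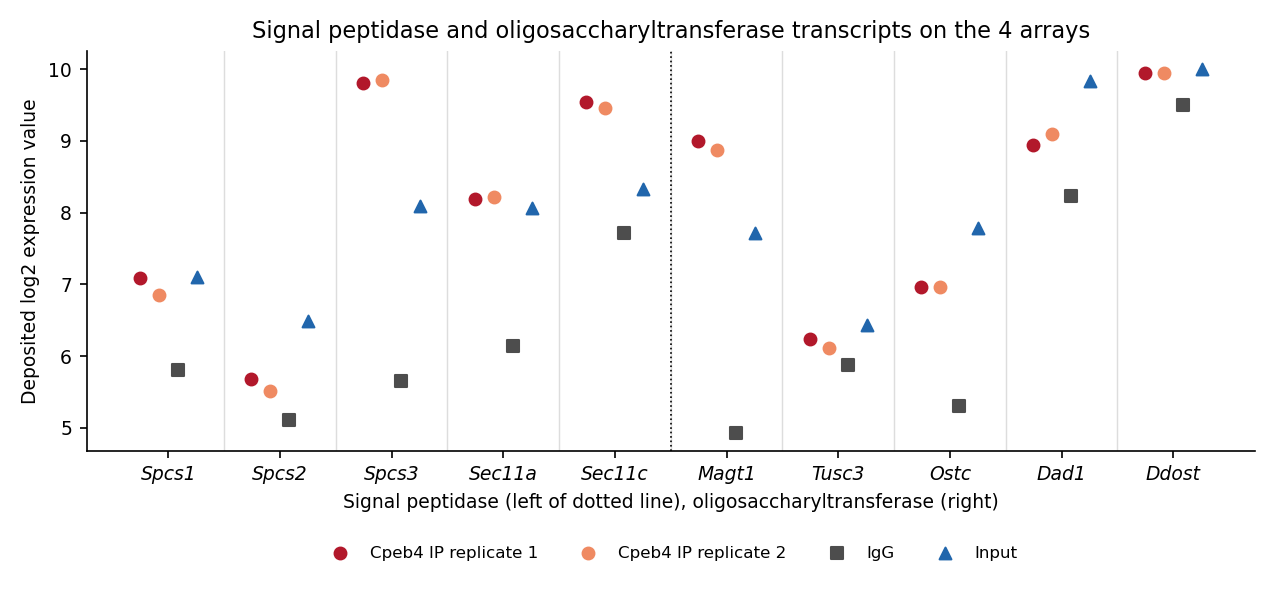
Deposited log2 expression value (y axis) of each of the 10 subunit transcripts (x axis) on the 2 Cpeb4 IP arrays (circles), the IgG array (squares) and the input array (triangles), with signal peptidase left of the dotted line and oligosaccharyltransferase right of it. In these values as deposited, IgG is the lowest array for all 10, which did not hold for Tusc3, Sec11c and Ddost after quantile normalization again, and the IP arrays lie above input for Spcs3, Sec11a, Sec11c and Magt1. Probe sets differ in efficiency, so heights are compared within a gene and not between genes.

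Spcs3 (Entrez gene 76687), whose counterpart in yeast is needed for signal peptidase activity, had log2 values of 9.81 and 9.84 on the IP arrays, 5.65 on the IgG array and 8.09 on the input array. The IP arrays were the highest and lay close together, input was between, and IgG was far below. Its mean of 9.83 ± 0.03 in the IP (SD, n = 2) was 1.74 above input (limma SE 0.12, adjusted p = 0.00905) and 4.17 above IgG. Of all tested genes, 98.7% had a smaller difference from input. By its difference from IgG it was number 5 of the 13911.

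The catalytic subunits differed from each other. Sec11c (Entrez gene 66286) had values of 9.54 and 9.46 in the IP, 7.72 in IgG and 8.33 in input, so both IP arrays lay above both controls. It rose by 1.17 over input (limma SE 0.12, adjusted p = 0.011), and was 1.78 above IgG. Sec11a (Entrez gene 56529) had 8.19 and 8.22 in the IP, 6.13 in IgG and 8.07 in input. The IP arrays of Sec11a were thus near the input array, and the IgG array alone was low. Its difference from input was 0.14 (limma adjusted p = 0.521, 95% interval -0.19 to 0.46), and its difference from IgG was 2.07. Both IP differences from input were larger for Sec11c (1.21 and 1.13) than for Sec11a (0.12 and 0.15). These are separate probe sets, and the difference between the paralogs was not tested.

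The remaining partners were at or below input. Spcs2 (Entrez gene 66624), an accessory subunit, had values of 5.68 and 5.52 in the IP, 5.11 in IgG and 6.49 in input. The IP arrays were between the controls, and Spcs2 fell by 0.89 on the log2 scale against input (1.85-fold lower, limma SE 0.14, adjusted p = 0.0194). Spcs1 (Entrez gene 69019), the other small accessory subunit, had 7.09 and 6.86 in the IP, 5.81 in IgG and 7.10 in input. IP replicate 1 was level with input and replicate 2 lay a little below it. The difference of -0.13 from input did not pass (limma adjusted p = 0.69, 95% interval -0.55 to 0.30), and that from IgG was 1.16.

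Among the 5 oligosaccharyltransferase subunits, Magt1 rose 2.32-fold over input, Ostc and Dad1 fell, and Tusc3 and Ddost did not pass. Over IgG the 5 ran from 1.23-fold for Tusc3 to 16.05-fold for Magt1, higher in both IP arrays in each case as deposited (Tusc3 was lower after quantile normalization again, by a difference of -0.15). Of the paralogs Magt1 and Tusc3, which are alternative thioredoxin-like subunits of the Stt3b form, Magt1 passed and Tusc3 did not. They are separate probe sets, and the difference between them was not tested.

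Magt1 (Entrez gene 67075), also studied for magnesium transport, had values of 8.997 and 8.88 in the IP, 4.93 in IgG and 7.72 in input. The IP arrays were highest and the IgG array was lowest by a wide margin. The mean of 8.94 ± 0.09 in the IP (SD, n = 2) was 1.21 above input (limma SE 0.13, adjusted p = 0.0111) and 4.004 above IgG, number 9 of the tested genes. Tusc3 (Entrez gene 80286) had 6.24 and 6.11 in the IP, 5.87 in IgG and 6.43 in input. All 4 arrays of Tusc3 lay close together, with the IP between the controls. It was 0.25 lower in the IP than in input on the log2 scale, with a difference of -0.25 that did not pass (limma adjusted p = 0.261, 95% interval -0.61 to 0.11). It was 0.30 higher than in IgG.

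Ostc (Entrez gene 66357), a subunit of the Stt3a form, had 6.97 on each IP array, 5.30 in IgG and 7.78 in input. The IP values were equal to within 1e-09 and lay between the controls. Ostc fell by 0.81 against input (1.76-fold lower, limma SE 0.12, adjusted p = 0.0172), and was 1.66 above IgG. Dad1 (Entrez gene 13135), a small subunit of both forms first described as a defender against apoptotic cell death, had 8.94 and 9.10 in the IP, 8.23 in IgG and 9.83 in input. Dad1 also lay between the controls, and it fell by 0.81 against input (1.75-fold lower, limma SE 0.14, adjusted p = 0.0233) while standing 0.79 above IgG. Ddost (Entrez gene 13200), a subunit of both forms, had 9.95 on each IP array, 9.50 in IgG and 10.01 in input. Its IP values were equal as well, and the 4 arrays spanned a narrow range. It differed by -0.05 from input (limma adjusted p = 0.877, 95% interval -0.37 to 0.27) and by 0.45 from IgG.

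Counted together against input, 3 of the 10 transcripts rose, where 10.2% of all tested genes did, and 3 fell, where 15.9% did. By size, Spcs3, Sec11c and Magt1 were at least 2-fold above input in both IP arrays, against 4.04% of tested genes, and 0 of 10 were at least 2-fold below, against 5.18%. The same 3 were at least 2-fold above both controls, as were 2.49% of tested genes. The median difference of the 10 from input was -0.09, and that of all tested genes -0.01, with members from 1.74 above input to 0.89 below it on the log2 scale. Of the 4 subunits that did not pass, the IP arrays of Sec11a lay above input and those of Spcs1, Tusc3 and Ddost below it, as deposited. After quantile normalization again the mean differences of Spcs1 (0.025) and Ddost (0.086) were above 0. At an unadjusted limma p under 0.05 the counts were also 3 and 3, where 15.2% of all tested genes were higher and 22.9% lower. The share that fell (30%) was thus nearer that of all genes there than at the adjusted threshold (15.9%). With 10 genes, these shares were not tested. This comparison shares its IP arrays with the one that drew attention to Spcs3 and Magt1, so it is not independent of the choice.

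Some of these calls depend on the prior spread. Spcs3 and Ostc passed in all 10 settings of the test, with adjusted p of at most 0.036 and 0.0371. The IP arrays of Ostc and Ddost were tied, so both entered limma's default prior and its trend and robust prior with a spread of 0. Dad1 differed from input by as much as Ostc (-0.81 each), but its IP arrays were not tied. Magt1 and Sec11c reached an adjusted p of 0.104 and 0.078 with limma's trend and robust prior, and Spcs2 and Dad1 0.164 and 0.174, while Ddost passed with that prior (adjusted p = 0.00648) at a difference of -0.05. Magt1 (adjusted p = 0.0659), Spcs2 (0.111) and Dad1 (0.12) also missed the threshold with limma's default prior, which takes in genes whose IP arrays are tied. Spcs2 (0.0697) and Dad1 (0.0646) missed it after a second quantile normalization of the arrays.

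**Figure D2:**
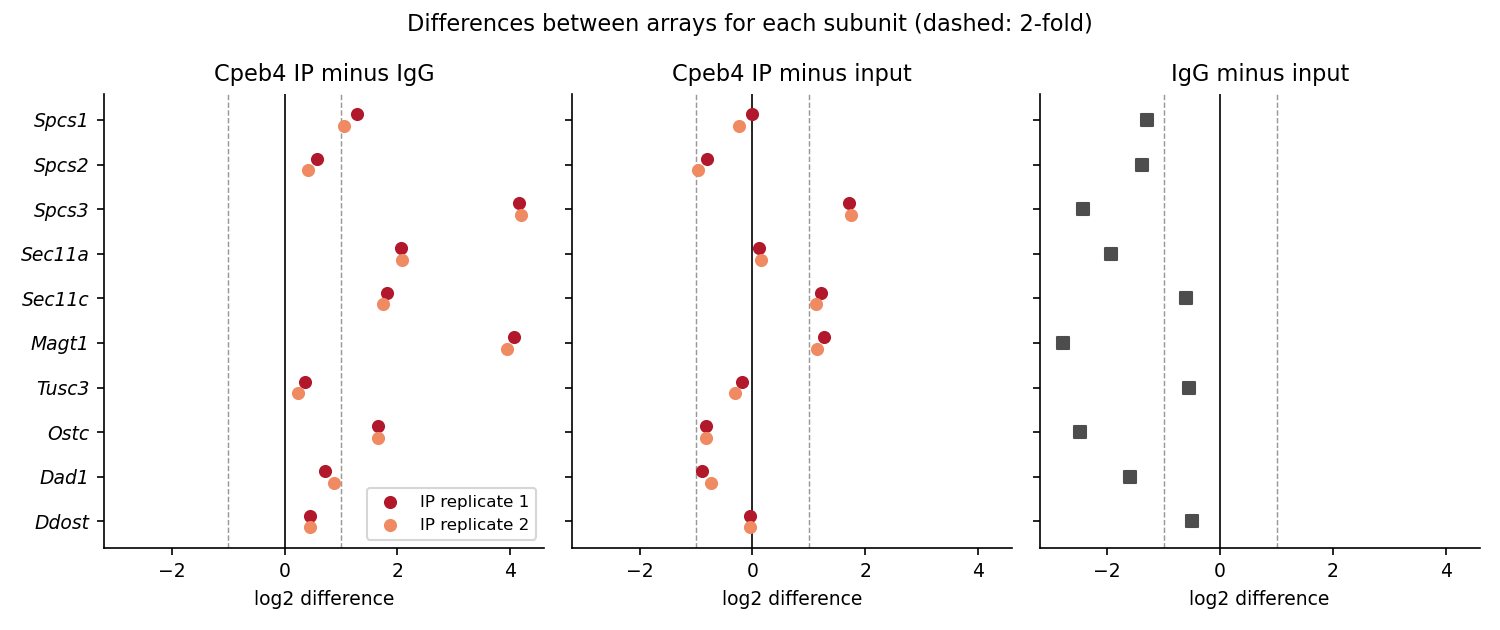
Log2 difference (x axis) for each subunit transcript (rows), with the Cpeb4 IP replicates minus IgG on the left, the IP replicates minus input in the middle and IgG minus input on the right. Dashed lines mark 2-fold. As deposited, all IP points lie right of 0 against IgG and all IgG points left of 0 against input (with Tusc3 turning in the first and Tusc3, Sec11c and Ddost in the second after quantile normalization again), and against input the IP points fall on both sides, with Spcs3, Sec11c and Magt1 past 2-fold.

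Against IgG, 6 of the 10 transcripts were at least 2-fold higher in both IP arrays, where 18.6% of tested genes were. Those below 2-fold were Spcs2, Tusc3, Dad1 and Ddost. The median of the 10 was 1.41, against 0.08 over all tested genes and 0.47 over genes at or above the 60th percentile of expression. As deposited, all 10 were higher than IgG in both IP arrays, as were 50.0% of tested genes, but after quantile normalization again the difference of Tusc3 was -0.15. At least 4-fold higher in both IP arrays were Spcs3, Magt1 and Sec11a, among 574 such genes. These values are those that drew attention to the subunits and carry no test.

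As deposited, the IgG array was also the lowest of the 4 for every subunit, and its distance from input enters each difference of the IP from IgG. IgG minus input ran from -2.79 for Magt1, through -2.48 for Ostc, -2.43 for Spcs3 and -1.93 for Sec11a, to -0.50 for Ddost. As deposited it was negative for all 10 subunits and for 54.7% of tested genes. After quantile normalization again it was negative for 7, with 0.28 for Sec11c, 0.018 for Tusc3 and 0.013 for Ddost. As deposited, IgG was at least 2-fold below input for 7 of the 10, against 23.9% of tested genes. The median was -1.49 for the subunits and -0.15 for all tested genes. For Magt1, the 4.004 above IgG was made up of 1.21 above input and 2.79 by which IgG lay below input (6.92-fold). For Spcs3 the parts were 1.74 and 2.43, and for Sec11c 1.17 and 0.61. Among these 3, the distance of the IP from input was the larger part for Sec11c and the smaller for Magt1 and Spcs3, as deposited. After quantile normalization again the second part for Sec11c had the opposite sign, since IgG then lay 0.28 above input. For Sec11a the parts were 0.14 and 1.93, and Ostc stood above IgG while it fell against input. IgG and input were single arrays, so this difference has no replicate.

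**Figure D3:**
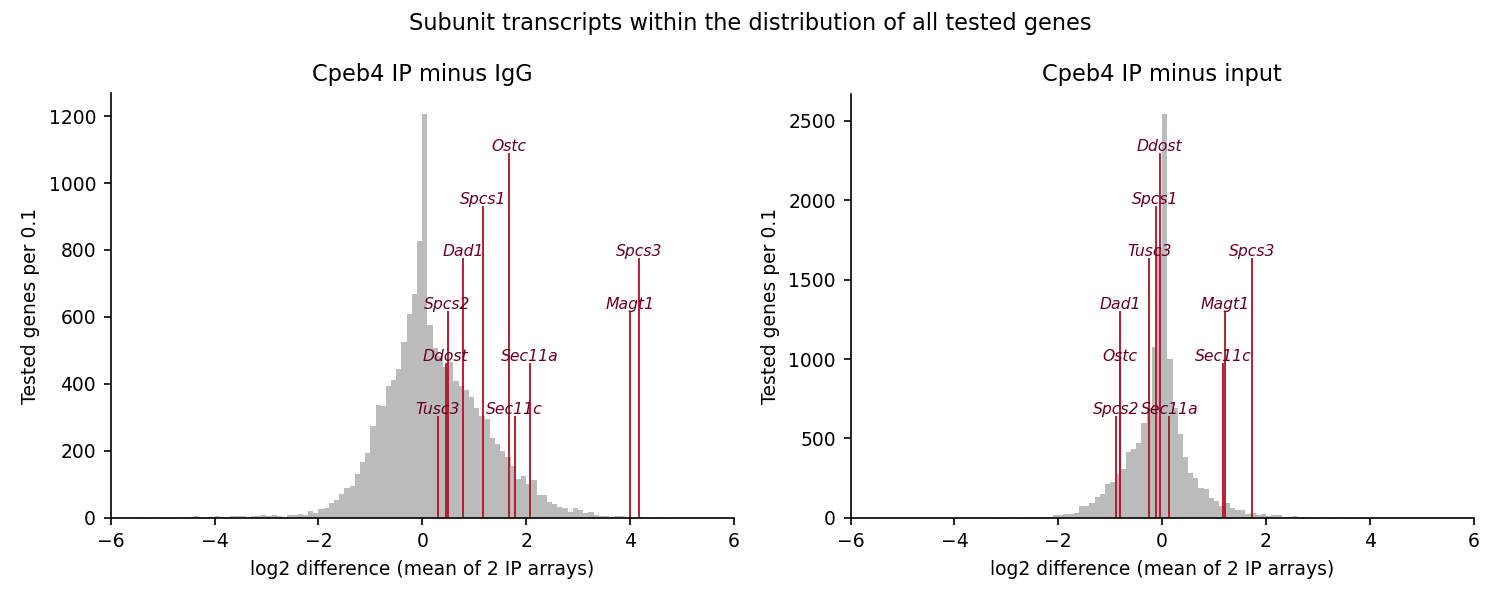
Number of tested genes per 0.1 of log2 difference (grey, y axis) against the difference (x axis), for the mean of the Cpeb4 IP arrays minus IgG on the left and minus input on the right. Red lines mark the 10 subunit transcripts and their heights carry no value. Spcs3 and Magt1 lie in the far right tail against IgG, and against input Spcs3, Magt1 and Sec11c lie in the right tail with Ostc, Dad1 and Spcs2 on the left.

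The rest of oligosaccharyltransferase was divided as well. Of its 7 other subunits, Stt3b, Stt3a and Rpn1 rose over input, Ost4 fell, and Krtcap2, Rpn2 and Tmem258 did not pass, where 10.2% of all tested genes rose and 15.9% fell. Stt3b and Ost4 passed in all 10 settings. Stt3a and Rpn1 missed the threshold with no filter and with the trend and robust prior, Stt3a also with the default prior, and Krtcap2 passed in 4 settings. Stt3b, the catalytic subunit of the form that holds Magt1 or Tusc3, had 10.27 and 10.23 in the IP, 7.86 in IgG and 9.10 in input. It rose 2.21-fold over input (limma adjusted p = 0.0109) and 5.26-fold over IgG (limma adjusted p = 0.00159). Stt3a, the catalytic subunit of the other form, had 10.64 and 10.71 in the IP, 8.69 in IgG and 10.11 in input, and rose 1.48-fold over input (limma adjusted p = 0.0388). For both catalytic genes the IP arrays were above both controls.

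Rpn1 (ribophorin I), which hands some substrates to the enzyme, had 8.42 and 8.45 in the IP, 8.03 in IgG and 7.87 in input, and rose by 0.56 over input (limma adjusted p = 0.0373). Ost4, a very small subunit, had 8.46 and 8.48 in the IP, 8.68 in IgG and 9.99 in input. As deposited it was the only one of the 17 subunits of either complex measured here whose IP arrays lay below IgG, though after quantile normalization again the IP means of Tusc3, Rpn1, Rpn2 and Tmem258 did too. The difference of Ost4 from IgG was -0.21 and did not pass (limma adjusted p = 0.202). With array medians subtracted that difference was 0.115. Ost4 fell by 1.52 against input (2.87-fold lower, limma adjusted p = 0.0092). Krtcap2, which with Ostc belongs to the Stt3a form, differed by 0.32 from input (limma adjusted p = 0.134). Tmem258 differed by -0.41 (limma adjusted p = 0.0776) and Rpn2 by -0.01 (limma adjusted p = 1). In the Stt3b form, then, Stt3b and Magt1 rose and Tusc3 did not pass, and in the Stt3a form Stt3a rose, Ostc fell and Krtcap2 did not pass. Of the 6 subunits that serve both forms, 1 rose (Rpn1), 2 fell (Dad1 and Ost4) and 3 did not pass (Ddost, Rpn2 and Tmem258).

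The neighbouring steps of protein entry, glycosylation and folding were likewise divided against input. In the 7 lists together, of which 109 genes were tested, 23 rose and 21 fell against input, or 21.1% and 19.3%, where 10.2% and 15.9% of all tested genes did, with a median of -0.04. Against IgG 77 rose and 5 fell, or 70.6% and 4.59%, where 36.1% of all tested genes rose and 21.2% fell, and the median was 0.98. With the 60th percentile filter, 78 genes of the lists rose and 2 fell against IgG. With that filter 4964 of all tested genes rose and 1176 fell. Of all genes called there, 80.8% rose, against 63.1% in the main setting. With the arrays quantile normalized again 55 rose and 22 fell against IgG. In that setting 4328 of all tested genes rose and 4070 fell, against 5028 and 2944 as deposited, and with array medians subtracted 7833 rose and 1934 fell. IgG lay below input for 96 of the 109 genes (88.1%), with a median of -0.94, against 54.7% and a median of -0.15 over all tested genes. The tested genes set beside the lists were not matched to them by expression level.

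Of 21 targeting and translocation genes, 4 rose and 2 fell against input, where 10.2% and 15.9% of all tested genes did. With the trend and robust prior 0 of them rose, and with the default prior 2. Of all tested genes, 1212 and 1306 rose with these priors, against 1416 in the main setting. Tram1, a protein near the translocation channel, rose by 1.14 over input and stood 2.33 above IgG. Tram2, its paralog, rose by 1.85 over a low input value of 3.83, but at 5.55 and 5.82 in the IP it was near its IgG value of 5.50 (limma adjusted p = 0.383 against IgG). In this list Srpr, the receptor of the signal recognition particle, fell by 0.86 and Sec61a2, a channel subunit, fell by 0.91. With the trend and robust prior neither passed (limma adjusted p = 0.0996 and 0.0762), and Srpr also missed the threshold with the default prior (0.0632). Of 22 genes that build the lipid-linked sugar chain, 3 rose and 7 fell (13.6% and 31.8%), beside the same shares of all tested genes. The number that fell was 3 after quantile normalization again, 4 with the default prior and 2 with the trend and robust prior. Of all tested genes, 1398, 1845 and 1632 fell in these settings, against 2213 in the main setting. Nus1, a subunit of the enzyme that makes the dolichol precursor, rose by 1.59 (limma adjusted p = 0.00964) while Dhdds, its partner subunit, fell by 1.28 (limma adjusted p = 0.011). Alg10b, which adds the last glucose, rose by 1.58 and Dpm2, a subunit of dolichol phosphate mannose synthase, fell by 1.25. The subunits of the dolichol enzyme thus lay on opposite sides of input, and neither passed with the default or the trend and robust prior.

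Of 14 genes of N-glycan trimming and the lectin cycle, 2 rose and 2 fell against input, shares of 14.3% near those of all tested genes. In the settings with no filter or with a second quantile normalization, 1 rose and 0 fell. Of all tested genes, 1260 and 1293 rose in these settings, and 1902 and 1398 fell. Edem1, a lectin of ER-associated degradation, rose by 0.70 and Mogs, the first trimming glucosidase, rose by 0.60, while Ganab, the second, fell by 0.54 and Man1b1, a mannosidase, fell by 0.51. Mogs passed in 5 of 10 settings and missed the threshold with the default prior and with the trend and robust prior. The IP arrays of Ganab and Man1b1 were tied, so their own spread was 0. Of 20 ER chaperones and oxidases 7 rose and 2 fell (35% and 10%), where 10.2% and 15.9% of all tested genes did. The highest were P4hb (protein disulfide isomerase, 1.54) and Dnajc3 (a co-chaperone, 1.29). Ppib, a prolyl isomerase, fell by 1.11, and Sdf2 differed by -0.78 without passing (limma adjusted p = 0.0508). Of 10 genes of the ER membrane protein insertion complex, 1 rose (Mmgt1 by 0.82) and 3 fell, shares of 10% and 30% beside those same background shares. Among those that fell were Emc7 by 1.03 and Emc2 by 0.95, and Emc1 differed by 0.07 (limma adjusted p = 0.832). With the trend and robust prior and with the default prior 0 of this list rose and 1 fell, and a second quantile normalization also left 0 that rose. Neither Emc7 (limma adjusted p = 0.102 and 0.0642) nor Emc2 (0.149 and 0.1) passed with these priors. Of all tested genes, 1212 and 1306 rose with them, and 1632 and 1845 fell. Of 15 ER-associated degradation genes 3 rose and 4 fell (20% and 26.7%), again beside 10.2% and 15.9% of all tested genes. Vimp, now Selenos, rose by 0.75 and Derl2 by 0.66, and Ufd1l, now Ufd1, fell by 0.99 and Herpud1 by 0.77. With the default prior or the trend and robust prior 1 of this list rose. Neither Vimp (limma adjusted p = 0.21 and 0.278) nor Derl2 (0.0642 and 0.101) passed with them.

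**Figure D4:**
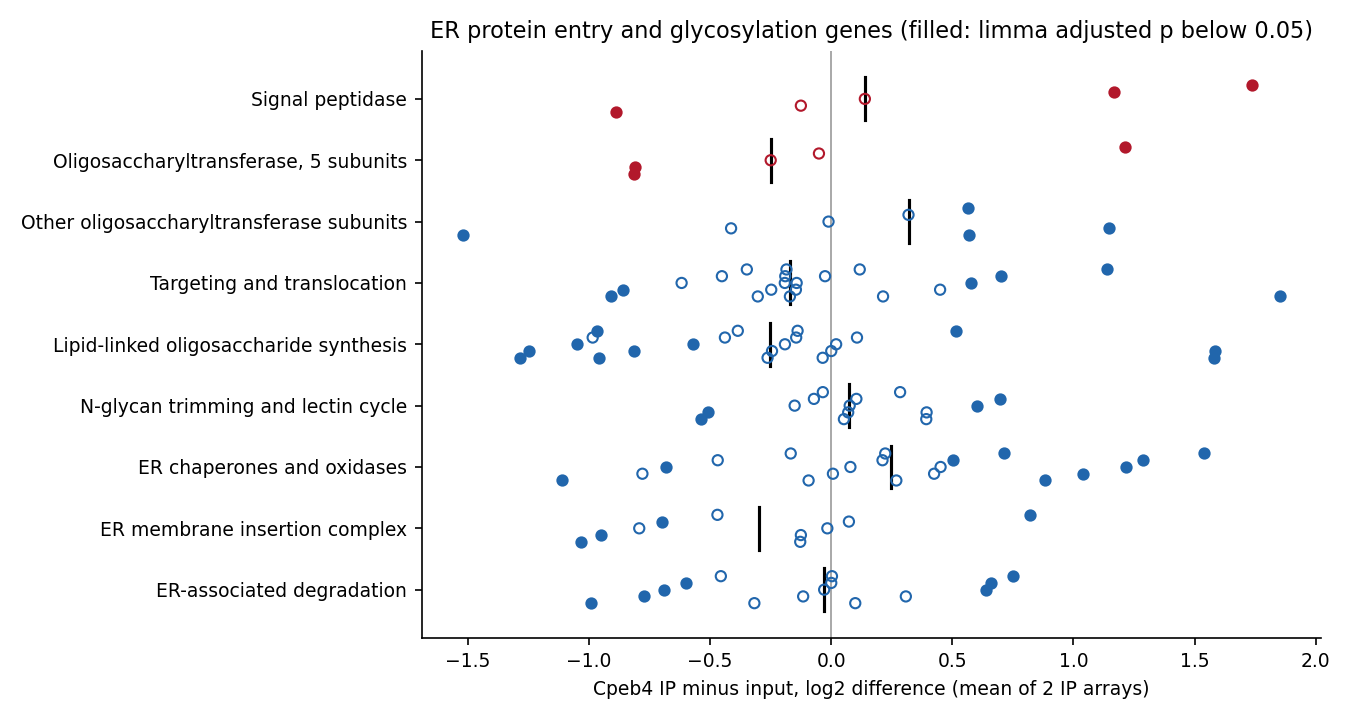
Log2 difference of the mean of the Cpeb4 IP arrays from input (x axis) for each tested gene, in rows by list, with the 10 subunits in red and the other genes in blue. Filled points have a limma adjusted p below 0.05 and black bars are medians, which run from -0.30 for the ER membrane insertion complex to 0.32 for the other oligosaccharyltransferase subunits. Every row has genes on both sides of 0.

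Genes with the most similar profile over the 4 arrays were found by Euclidean distance after each gene's mean was removed, among 13901 other tested genes. The highest subunits had no very close match: Spcs3 was nearest to Znrf2 (distance 0.244 on the log2 scale) and Magt1 to Gid4 (distance 0.219). The other 8 lay much closer to theirs, with Ddost nearest to Ranbp1 (0.0145), Sec11a to Irf2 (0.0273), Ostc to Eif1ad (0.0359) and Tusc3 to Chd7 (0.042). Spcs2 was nearest to Pla2g4c (0.0496), Sec11c to Lrp6 (0.0509), Spcs1 to A230045G11Rik (0.052) and Dad1 to Mtmr10 (0.052). With 4 arrays these distances are a description only.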

How the data were processed

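The authors deposited a log2 expression value for each probe set on each array; RMA and affy are named for them in the submitters' processing notes, and their versions, the probe definition and any filter are not given in the sources used here. Probe sets are named by Entrez gene number, and symbols came from the platform's annotation (23185 named probe sets). The sources give no detection calls, so precision is limited by the number of arrays.

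Groups were taken from the sample titles. Values were fitted with limma 3.58.1 in R 4.3.3 (3 groups, 1 residual degree of freedom, from the IP arrays). Single control arrays were assumed to vary like the IP arrays. The IP arrays were tied within 1e-09 in 3032 of 13911 tested genes (21.8%), and these enter limma's default prior with a spread of 0, so the prior spread was estimated on the other genes (prior SD 0.11, prior degrees of freedom 3.07) and used for all. The script was tested on simulated data with and without such ties. Benjamini-Hochberg adjustment ran over all tested genes. The size rule was 2-fold in both IP arrays. IgG and input were compared by size only.

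The 10 subunits, the 7 pathway lists (114 genes, 110 matched to a probe set by symbol or RefSeq synonym) and the markers were chosen with earlier results of these data known. The lists held the other oligosaccharyltransferase subunits and genes of targeting and translocation, lipid-linked oligosaccharide synthesis, N-glycan trimming, ER chaperones and oxidases, the ER membrane insertion complex and ER-associated degradation. Named genes were the 10 subunits, the other oligosaccharyltransferase subunits, the 2 highest and 2 lowest genes of each other list by IP minus input, and each subunit's nearest profile. Alternatives were other filters, normalizations, priors, thresholds and each IP replicate left out. No coordinates or sequences are given, as no build was named.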

Additional observations from a re-analysis of the deposited data

How the results depend on the processing

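Among single subunits, 0 of the differences from input that passed the test in the main setting turned direction. Ddost, which passed with the trend and robust prior at -0.05, was at 0.086 after quantile normalization again. After a second quantile normalization, untested signs did turn: IP minus IgG was -0.15 for Tusc3, and IgG minus input was 0.28 for Sec11c, 0.018 for Tusc3 and 0.013 for Ddost, leaving 7 of 10 subunits with IgG lower. In that setting the subunits' median was 0.90 for IP minus IgG, 0.056 for IP minus input and -1.02 for IgG minus input, and 1 subunit fell against input in place of 3. With array medians subtracted, the medians were 1.74 for IP minus IgG and -1.85 for IgG minus input; this setting moved the median of all tested genes to 0.41 for IP minus IgG. At 4-fold, 3 subunits were above IgG and 0 above input, and at 1.5-fold 3 were below input. With limma's trend and robust prior 1 subunit rose over input, and with its default prior 1 fell. Of all tested genes, 1212 rose with the first prior and 1845 fell with the second. Leaving out either IP replicate, by size only since no residual degrees of freedom remain, left the subunit counts at 6 above IgG and 3 above input. With the IgG array left out of the fit, a setting chosen after seeing the data, 3 subunits rose and 3 fell against input. Of all tested genes, 1429 rose and 2232 fell in that fit.

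Counts over all tested genes moved more. Against IgG, 2944 fell as deposited, 5668 with no filter, 1176 with the 60th percentile filter and 1934 with medians subtracted. Those that rose were 5028 as deposited, 7833 with medians subtracted and 3187 with the trend and robust prior. Against input, 2213 fell as deposited and 1398 after quantile normalization again. Of 272 recomputed list counts, 60 moved by over 1.5 times. No paired analysis was possible because only the IP arrays carry replicate numbers. The median over all probe sets was 4.49 on the IgG array, 4.15 and 4.17 on the IP arrays and 4.13 on the input array. Subtracting array medians therefore raises each mean difference of the IP from IgG by the same amount. The IgG and input arrays have no replicate, which limits every comparison. The cause of the other shifts was not tested.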
